A study of Mus musculus with 19 samples.

Results

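The VAS libraries, VAS1 to VAS4, were 4 RNA-seq libraries of mouse endometrium collected on day 3.5 pc (post coitum) that were chosen by the prefix of their column names in the count table. They were compared with the 4 INT libraries, INT1 to INT4, of the same day, so that 8 of the 19 libraries of the series are described, and 3 libraries of estrous females served as a reference for levels. All 8 came from adult C57Bl/6 females of WT genotype that had mated with Balb/c males, and these males were intact in the INT group. For the VAS group the labels disagree: the library names carry only the prefix VAS, whereas titles and treatment fields describe males that were both vasectomised and deficient in seminal vesicles. The prefixes SVX and SVX_VAS are crossed with their titles in the same way, so that the group is called by its prefix here and no surgery is assigned to it. The study describes its libraries of estrus and INT females as pooled samples without a number of animals found here for a pool, and the VAS libraries were not part of its article, so that all tests measure the spread between libraries. The endometrium had been scraped off the myometrium, and the tissue held all cell types of the mucosa.

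In the mouse, ovarian estrogen drives growth and secretion of the uterine epithelium around ovulation, and rising progesterone after mating then silences many of these genes and switches on a second set, before implantation begins. Indian hedgehog, made by the epithelium under progesterone, signals to the stroma through Ptch1 and the Gli factors, and leukaemia inhibitory factor from the glands prepares the epithelium for attachment of the blastocyst. Seminal fluid carries sperm from the testis and the secretions of accessory glands such as the seminal vesicles, and contact with it draws neutrophils and other leukocytes into the female tract. The series' design text gives the purpose of the matings with operated males as the role of seminal fluid in the uterine transcriptome around implantation. The comparison of VAS with INT bears on which endometrial transcripts differed after the 2 kinds of mating.

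The INT libraries held between 14201095 and 17420572 counts on genes, and VAS1, VAS2, VAS3 and VAS4 held 18258677, 16722426, 16104357 and 14040286. Total counts did not separate the groups (exact permutation test, two-sided, 70 splits, p = 0.600, against a smallest possible p of 0.0286). The limit for a gene without counts, taken as 3 counts, lay between 0.139 and 0.226 CPM (counts relative to the TMM-scaled library size) in these libraries and covers counting error only.

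VAS2 and VAS3 stood apart from every other library in the way counts were spread over genes. Among genes of at least 500 bases, the highest number of counts per base of exon was 1.79 in VAS2 and 1.71 in VAS3, against 55.8 in VAS1, 47.6 in VAS4 and at least 25.2 in each INT library. No gene exceeded 2 counts per base in VAS2 or VAS3, whereas 158 genes did so in VAS1, 84 in VAS4 and between 92 and 139 in the INT libraries. Malat1, an abundant nuclear RNA, was at 9931 CPM in VAS1 and 13071 CPM in VAS4 but at 548 CPM in VAS2 and 548 CPM in VAS3. Eef1a1, a translation elongation factor, showed the same pattern with 2232 CPM in VAS1 and 2490 CPM in VAS4 against 108 and 112 CPM in VAS2 and VAS3. The 100 most abundant genes took 5.93% and 5.92% of the counts in VAS2 and VAS3 and between 12.3% and 13.4% in the other 6 libraries.

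The difference followed counts per base. Over genes with no gene on the opposite strand, the median log2 ratio of VAS2 and VAS3 to VAS1 and VAS4 was 0.898 for the 1296 genes under 0.03 counts per base, 0.435 for the 3447 genes from 0.1 to 0.3, -1.0 for the 281 genes from 1 to 3 and -2.41 for the 58 genes above 3. Genes of the antisense type were affected in addition. They received 0.470% and 0.466% of the counts in VAS2 and VAS3, against 1.28% in VAS1, 1.37% in VAS4 and between 1.32% and 1.38% in the INT libraries, and 368 and 364 of the 978 tested antisense genes had no count in VAS2 and VAS3, against at most 3 in the other 6. Their median log2 ratio was -2.90, and that of 260 processed pseudogenes was -1.91. Across the 17222 tested genes, Pearson's r of log2 CPM was 0.984 between VAS2 and VAS3, between 0.748 and 0.777 of either with the other 6, and between 0.920 and 0.991 among those 6; genes are not independent replicates. Library preparation, removal of duplicate reads and the strand setting of the counting were not tested as sources of this difference. The tests were therefore run with and without VAS2 and VAS3.

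**Figure D1:**
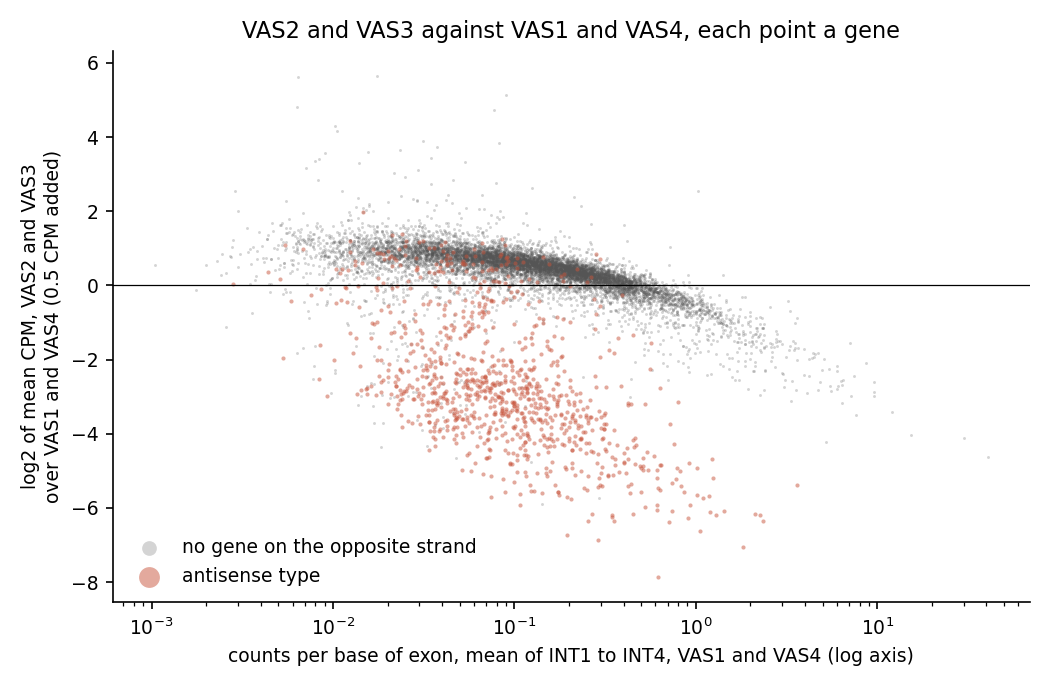
Each point is a tested gene; the x axis gives mean counts per base of exon in INT1 to INT4, VAS1 and VAS4 (log axis) and the y axis the log2 ratio of mean CPM in VAS2 and VAS3 over VAS1 and VAS4. Grey points, genes with no gene on the opposite strand, bend from a median of 0.898 at under 0.03 counts per base to -2.41 above 3, and red points, antisense genes, lie lower with a median of -2.90.

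No gene was called as differing between VAS and INT. With all 4 VAS libraries, edgeR's quasi-likelihood test called 0 of 17222 genes (0%) when calls required a fold change of 1.5 or more and an FDR (Benjamini-Hochberg) not above 0.05, and the smallest FDR was 0.452. At an unadjusted p under 0.05 there were 1831 genes (10.6%), 749 higher and 1082 lower in VAS. Without VAS2 and VAS3 the same test again called 0 genes (0%), the smallest FDR was 1, and 154 genes (0.894%) had an unadjusted p under 0.05, 67 higher and 87 lower. DESeq2 called 0 genes in either fit, with 2111 and 151 genes at an unadjusted p under 0.05. With only the VAS and INT libraries in the fit, edgeR also called 0 genes, and the smallest FDR was 0.820. In that fit 225 genes (1.31%) had an unadjusted p under 0.05, 151 higher and 74 lower in VAS. With VAS2 and VAS3 left out as well there were 48. A lack of calls does not show that the groups were alike. Without VAS2 and VAS3 the 95% interval of the logFC (log2 fold change, VAS minus INT) had a median half-width of 0.364, and it lay wholly within a 1.5-fold change in either direction for 63.9% of the genes and within 1 log2 unit for 87.4%. With all 4 VAS libraries these shares were 50.1% and 75.9%. These fits estimate the spread over all 5 groups. With only the VAS and INT libraries in the fit, the shares were 39.0% and 67.8% and the median half-width was 0.507.

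Limma-voom, which the study used along with edgeR, gave another count when VAS2 and VAS3 were included. It called 1642 genes as lower (9.53% of those tested) and 19 as higher in VAS (0.110%). Of the 1642, 1527 (93.0%) lay opposite another gene, against 44.1% of all genes tested, 688 were of the antisense type, and 573 had no count at all in VAS2 and VAS3. Their median logFC was -3.70 in that fit and -0.04 in the edgeR fit without VAS2 and VAS3. Limma-voom without these libraries called 0 genes, with 170 at an unadjusted p under 0.05. Leaving out VAS1 or VAS4, which makes VAS2 and VAS3 the larger share of the group, gave 576 calls (110 higher, 466 lower) and 134 calls (8 higher, 126 lower) in edgeR. These were of another kind than the limma-voom calls. Of the genes called lower, 43.6% without VAS1 and 59.5% without VAS4 lay opposite another gene, and 19 and 14 were of the antisense type. Above 1 count per base lay 115 of the 466 and 40 of the 126, against 40 of the 1642 limma-voom calls. The genes called lower had a median logFC of -0.80 and -0.99 in these fits. In the edgeR fit without VAS2 and VAS3 it was -0.03 and -0.18.

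The groups were also set side by side without a model. All 4 VAS libraries lay above all 4 INT libraries in CPM for 109 genes (0.633%) and below them for 103 (0.598%). VAS1 and VAS4 alone lay above all INT libraries for 220 genes (1.28%) and below them for 309 (1.79%).

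The 10 genes with the smallest p in the fit of all 4 VAS libraries, none of them called, were the following. Mmp9, a gelatinase made by neutrophils and macrophages, lies on chromosome 2 (164940780 to 164955850, plus strand, GRCm38). It was at 2.57, 2.21, 1.88 and 2.45 CPM in INT1 to INT4 and at 4.74, 7.79, 17.1 and 2.89 CPM in VAS1 to VAS4. The groups did not overlap, with VAS4 closest to INT, and the logFC was 1.84 (95% interval 0.96 to 2.72) with all VAS libraries and 0.76 (0.16 to 1.36) without VAS2 and VAS3. Csf3r, the receptor for the neutrophil growth factor G-CSF, was at 7.11, 7.88, 5.65 and 8.75 CPM in INT and at 12.6, 30.9, 36.0 and 8.40 CPM in VAS, so that VAS4 lay within the INT range. Its logFC was 1.58 (0.77 to 2.40) and, without VAS2 and VAS3, 0.53 (-0.11 to 1.16).

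Kcnn3, a calcium-activated potassium channel (chromosome 3, 89520164 to 89675132, plus strand), was at 32.6, 30.4, 30.1 and 32.9 CPM in INT and at 53.4, 45.3, 70.8 and 36.9 CPM in VAS. The INT libraries were close together and every VAS library lay above them, with a logFC of 0.71 (0.35 to 1.07) and, without VAS2 and VAS3, of 0.52 (0.17 to 0.88). Tmem255a, which encodes a transmembrane protein (X chromosome, 38196573 to 38252439, minus strand), was lower in each VAS library, at 6.71, 5.37, 5.74 and 8.33 CPM, than in INT, at 14, 9.96, 10.8 and 9.31 CPM. Its logFC was -0.75 (-1.10 to -0.41) and, without VAS2 and VAS3, -0.55 (-0.93 to -0.17), and its exons overlap a gene on the opposite strand. Zfp408, a zinc finger protein gene, and Usp49, a deubiquitinase gene with exons opposite another gene, showed small differences with little spread: Zfp408 was at 26.0 to 28.1 CPM in INT and 30.2 to 36.3 CPM in VAS, and Usp49 was at 15.3 to 17.2 CPM in INT and 19.3 to 21.6 CPM in VAS. In neither gene did the logFC without VAS2 and VAS3, 0.18 and 0.29, reach a 1.5-fold change. Zfp408 had 0.109 counts per base, in a class that read higher in VAS2 and VAS3 by a median of 0.435 log2 units. With all VAS libraries its logFC was 0.28. After a smooth trend against counts per base was taken out of each library it was 0.17, and among genes under 0.2 counts per base it was 0.08. Kcnn3 was at 0.51 and 0.52 after these steps, and Mmp9, at 1.84 before them, was at 1.41 and 1.57. Mmp9 had 0.0123 counts per base, in the class that read higher in VAS2 and VAS3 by a median of 0.898 log2 units.

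Csgalnact1, an enzyme that starts chondroitin sulfate chains, was at 7.79 to 9.64 CPM in INT and at 11.0, 17.3, 16.1 and 10.7 CPM in VAS, with a logFC of 0.66 and, without VAS2 and VAS3, of 0.32 (0.03 to 0.61). The unnamed locus Gm44891 was higher in VAS (3.38 to 8.16 CPM against 2.04 to 2.94 CPM), and the noncoding transcript 2610203C22Rik (2.14 to 3.95 against 4.05 to 5.95 CPM) and the locus ENSMUSG00000097243.1 (2.33 to 3.46 against 3.86 to 5.04 CPM) were lower. The last 2 have exons opposite another gene, and all 3 lie near the lower limit of the genes tested. The logFC of Gm44891 was 1.07 with all VAS libraries and 0.74 with the trend against counts per base removed. In 9 of these 10 genes, all but Csf3r, the 4 VAS libraries did not overlap the INT libraries. The genes were picked for their small p, so that this count is a description only, and none of them passed an FDR of 0.05 in edgeR with or without VAS2 and VAS3. On leaving out VAS1, and likewise VAS4, edgeR called 8 of the 10, all but Zfp408 and Usp49.

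**Figure D2:**
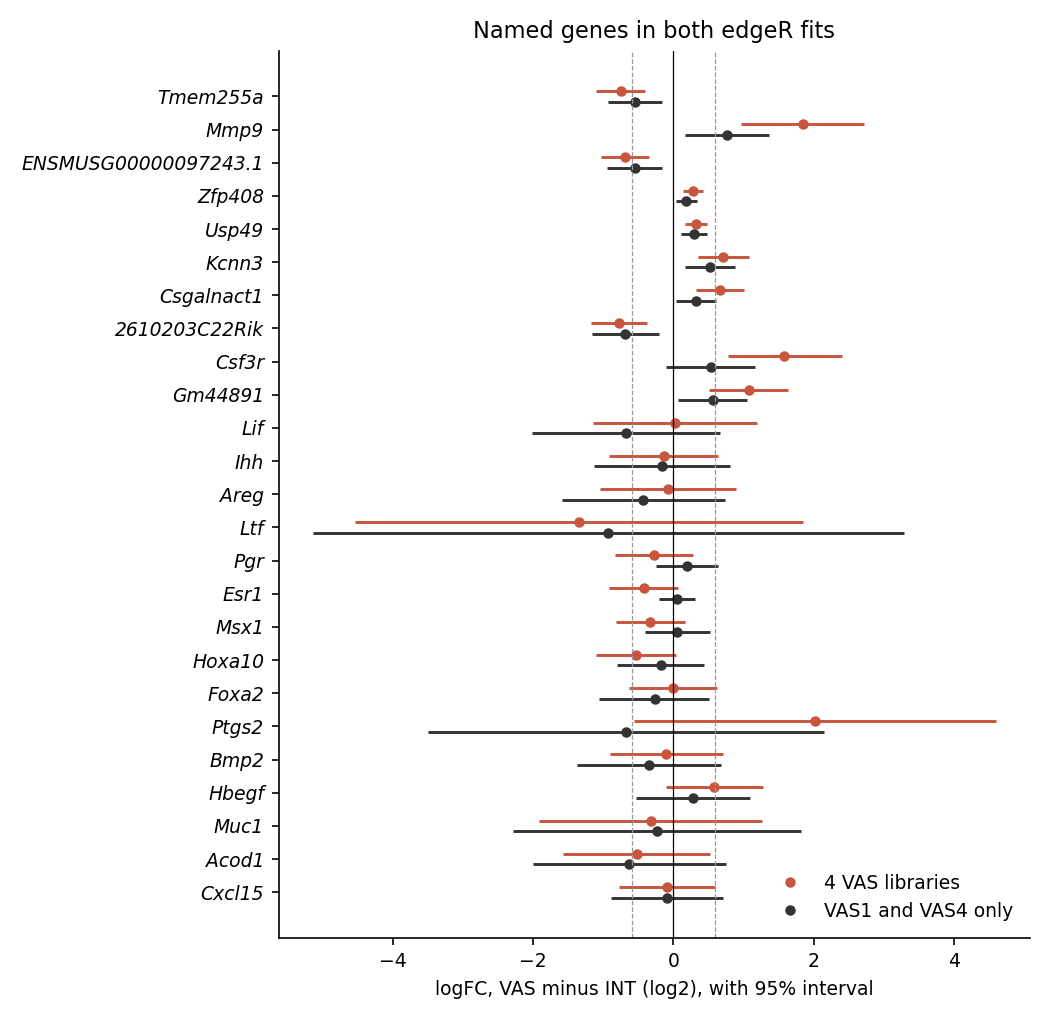
The logFC of VAS minus INT (log2, x axis) with its 95% interval is drawn for the 25 named genes in the edgeR fit of all 4 VAS libraries (red) and in the fit without VAS2 and VAS3 (black), with dashed lines at a 1.5-fold change. Intervals are narrow for Zfp408 and Usp49 in both fits and run from -5.14 to 3.28 for Ltf, the widest of the black bars.

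The hormone-responsive genes varied widely within each group. Ltf, which encodes lactoferrin and is a classical estrogen target of the epithelium, was at 2157, 643, 27.4 and 45.3 CPM in INT1 to INT4 and at 713, 222, 152 and 38.1 CPM in VAS1 to VAS4. INT1, INT2 and VAS1 were high and INT3, INT4 and VAS4 low, and all VAS libraries lay within the INT range. In estrus Ltf was at 1875 to 2848 CPM. Its logFC was -1.35 (-4.54 to 1.84) and, without VAS2 and VAS3, -0.93 (-5.14 to 3.28), so that changes of well over 1.5-fold in either direction remained within the error.

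The same libraries were high for other estrogen-responsive epithelial genes. C3, a complement component, was at 3989 and 1445 CPM in INT1 and INT2 and 1012 CPM in VAS1, and at 129, 170 and 124 CPM in INT3, INT4 and VAS4. Lcn2, an iron-binding secretory protein gene, ranged from 4.06 to 1180 CPM over the INT libraries, with 292 CPM in VAS1 and 3.04 CPM in VAS4. Muc1, the surface mucin lost at receptivity, was at 170, 141, 20.4 and 26.5 CPM in INT and at 131, 89.8, 44.1 and 20.1 CPM in VAS. Of the 17 tested genes in this list of 21, none was called or lay apart between the groups in either comparison. The median logFC of the list was -0.28 with all VAS libraries and -0.81 without VAS2 and VAS3, against 0.0003 and -0.01 over all genes tested. Its median level was 7.41, 7.14, 4.25 and 3.70 log2 CPM in INT1 to INT4 and 7.28, 5.46, 5.59 and 3.69 in VAS1 to VAS4. The mean of these levels in VAS minus that in INT was -0.12, and -0.14 without VAS2 and VAS3. On leaving out INT1, the logFC over all VAS libraries was 0.24 for Ltf, 0.19 for Muc1 and -0.23 for Pgr. When a smooth trend against counts per base was taken out of each library over genes with no opposite-strand gene, the 13 members left had medians of 8.33 and 7.32 in VAS2 and VAS3, beside 8.10 in VAS1, 3.36 in VAS4 and 8.18, 7.96, 4.95 and 4.11 in the INT libraries.

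Progesterone targets showed the opposite order of libraries and no difference between the groups that exceeded their spread. Ihh, the Indian hedgehog ligand, was at 23.6, 24.1, 48.8 and 47.0 CPM in INT and at 18.7, 33.6, 32.7 and 45.5 CPM in VAS, against 0.476 to 3.41 CPM in estrus. VAS1 was the lowest of the 8 and VAS4 lay with INT3 and INT4, and the logFC was -0.14 (-0.92 to 0.64) and, without VAS2 and VAS3, -0.16 (-1.13 to 0.80). Its receptor Ptch1 was at 193, 265, 253 and 510 CPM in VAS1 to VAS4 against 264 to 503 CPM in INT, so that VAS1 was the lowest of the 8 libraries and VAS4 the highest. Gli1, a transcription factor induced by the pathway, was at 84.4 CPM in VAS1 and 183 CPM in VAS4 against 101 to 197 CPM in INT. None of the 14 genes of the hedgehog pathway was called, and in none did the groups stand apart.

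Areg, the amphiregulin gene of the luminal epithelium, was at 2.5, 4.41, 7.93 and 8.82 CPM in INT and at 1.24, 4.76, 8.79 and 7.70 CPM in VAS, and Acod1, which makes itaconate, was at 51.4, 55.5, 97.3 and 164 CPM in INT and at 10.7, 70.6, 66.0 and 109 CPM in VAS. Both genes were lowest in VAS1 among the 8 libraries. Hoxa10, a homeobox gene that the stroma needs for decidualization, was at 160, 170, 261 and 249 CPM in INT and at 120, 101, 107 and 249 CPM in VAS. VAS4 equalled INT4 here, and the logFC moved from -0.54 (-1.11 to 0.03) to -0.18 (-0.80 to 0.44) when VAS2 and VAS3 were left out. The 18 progesterone-responsive genes had a median level of 5.43, 5.58, 6.63 and 6.59 log2 CPM in INT and of 4.95, 5.88, 5.82 and 6.43 in VAS.

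**Figure D3:**
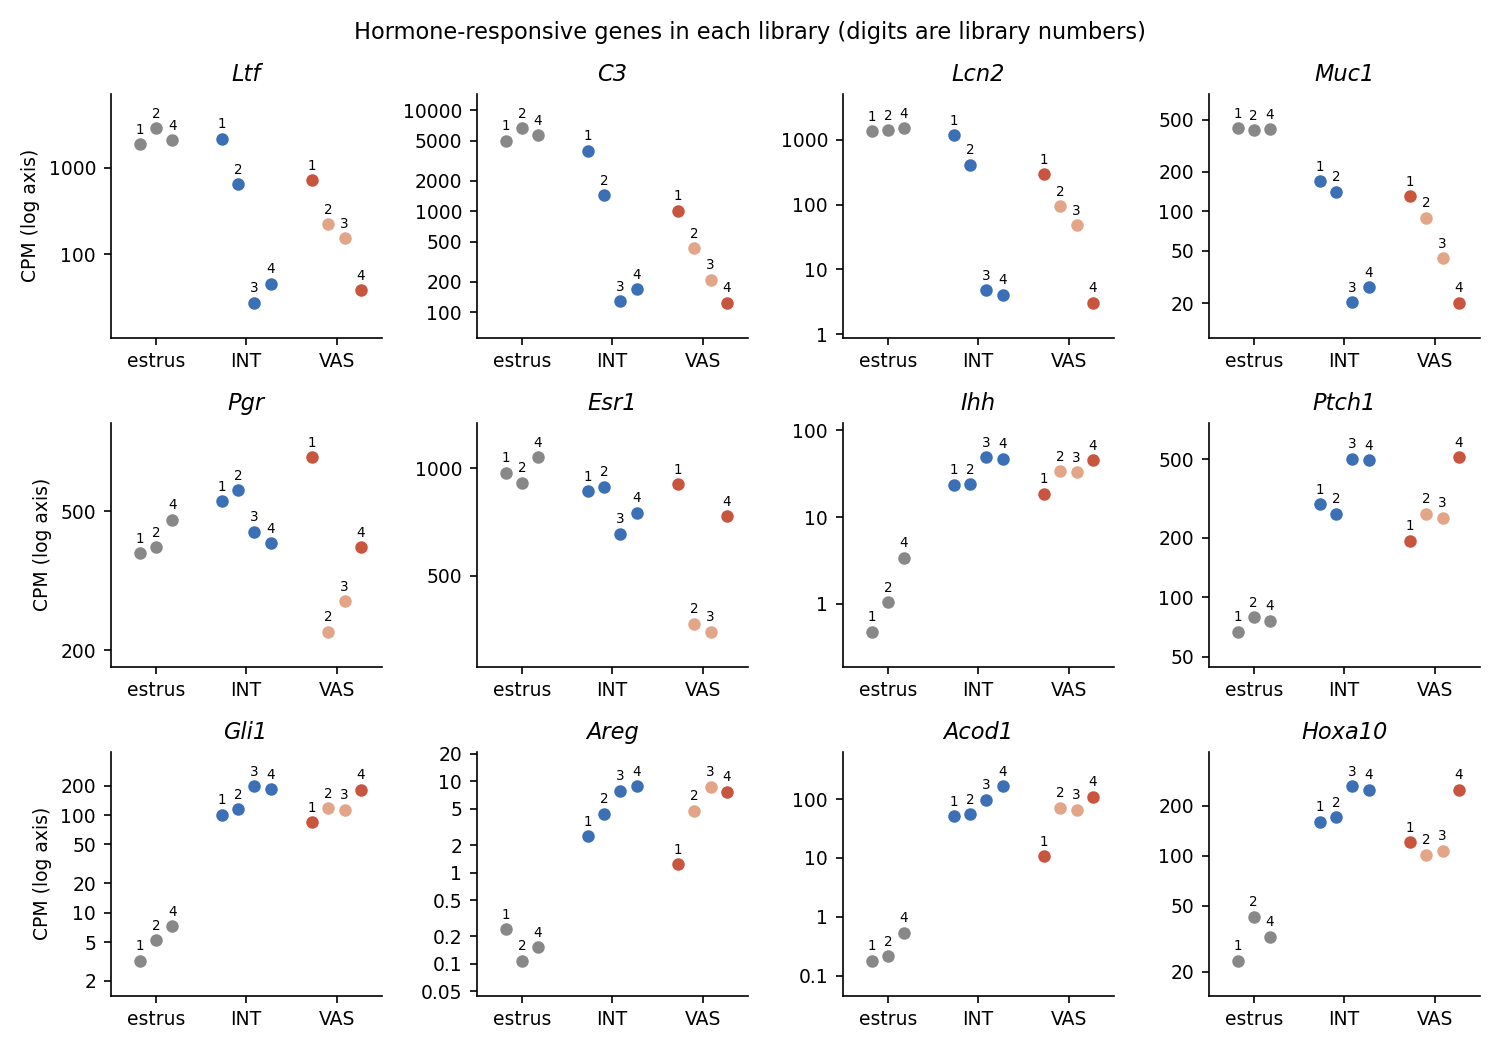
CPM (log axis) of 12 genes in each library, by group, with the library number above each point (grey, estrus; blue, INT; dark red, VAS1 and VAS4; light red, VAS2 and VAS3). For Ltf the INT points run from 27.4 to 2157 CPM and the VAS points from 38.1 to 713 CPM, so that the groups overlap.

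The logFC of the hormone receptor genes was near 0 without VAS2 and VAS3. Esr1, the estrogen receptor, was at 655 to 886 CPM in INT, 901 CPM in VAS1 and 733 CPM in VAS4, with a logFC of 0.05 (-0.20 to 0.31). That interval excludes a 1.5-fold change in a fit whose spread is estimated over all 5 groups. Pgr, the progesterone receptor, was at 405 to 575 CPM in INT, 713 CPM in VAS1 and 395 CPM in VAS4, with a logFC of 0.19 (-0.25 to 0.63). VAS2 and VAS3 held 368 and 349 CPM of Esr1 and 226 and 276 CPM of Pgr, and with 0.903 and 0.934 counts per base these genes lie at the upper edge of the class from 0.3 to 1, whose median log2 ratio of VAS2 and VAS3 to VAS1 and VAS4 was -0.06, next to the class at -1.0, and their own ratios were -0.79 and -0.74. With the trend removed the logFC over all VAS libraries was -0.05 for Esr1 and 0.06 for Pgr. Including VAS2 and VAS3 without that step changed the sign of both logFC values, to -0.42 (-0.92 to 0.07) and -0.28 (-0.84 to 0.28).

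Signals of the implantation window were measured with wide intervals. Lif, the leukaemia inhibitory factor gene, was at 43.9, 23.2, 9.98 and 8.19 CPM in INT and at 18.9, 45.4, 14.5 and 7.55 CPM in VAS, with a logFC of -0.67 (-2.01 to 0.67) without VAS2 and VAS3 and of 0.02 with them. Ptgs2, an inducible prostaglandin synthase, was at 20.9, 5.48, 11.0 and 5.95 CPM in INT and at 9.08, 147, 13.8 and 4.24 CPM in VAS. VAS2 stood far above the other 7 libraries, and the logFC was 2.01 with all VAS libraries and -0.25 without VAS2. Hbegf, a growth factor of the epithelium at the attachment site, was at 6.09 to 10.9 CPM in INT and at 14.8, 18.9, 12.3 and 6.28 CPM in VAS, with a logFC of 0.58 (-0.11 to 1.27) and, without VAS2 and VAS3, 0.28 (-0.53 to 1.09).

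Bmp2, a decidual signal, was at 3.33 to 12.3 CPM in INT and 3.95 to 7.65 CPM in VAS, and Msx1, a homeobox factor of the receptive epithelium, was at 104 to 227 CPM in INT and at 153, 82.6, 88.3 and 162 CPM in VAS. Msx1 lay below the INT range in VAS2 and VAS3, and its logFC was -0.33 (-0.82 to 0.16) with them and 0.05 (-0.41 to 0.52) without. In the glands, the transcription factor gene Foxa2 was at 8.89 to 21.8 CPM in INT and 7.5 to 16.9 CPM in VAS, and the gland chemokine Cxcl15 was at 26.5 to 50.7 CPM in INT and 25.3 to 40.8 CPM in VAS. The VAS range lay within the INT range or ran just past its lower end in Bmp2, Foxa2 and Cxcl15. In VAS the gland proteases Prss28 and Prss29, which were chosen after their values were seen, were at 1.97 and 2.76 CPM in VAS1 and 26.9 and 51.6 CPM in VAS4, within the INT ranges of 0.49 to 108 and 0.98 to 186 CPM.

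The first principal component of the 6 libraries without VAS2 and VAS3 separated INT1, INT2 and VAS1 from INT3, INT4 and VAS4. Ltf and Ihh showed this split, but Ptgs2 did not. Prss28 had a large weight towards INT3, INT4 and VAS4 but did not show the full split, as INT4, at 0.49 CPM, was its lowest library. In principal components of log2 CPM over 17222 genes, PC1 held 68.8% of the variance and had scores of -51.1, -34.3, 42.4 and 42.8 for INT1 to INT4, -44.6 for VAS1 and 44.7 for VAS4. With the estrus libraries added, PC1 held 81.8% and ran from -109 to -83.8 in estrus through 5.14, 5.66 and 19.1 in INT1, VAS1 and INT2 to 81.9, 84.1 and 86.4 in INT3, INT4 and VAS4. VAS1 and VAS4 lay at opposite ends of the day 3.5 pc libraries on this axis, as INT1 and INT4 did. In single genes, the range over the 4 INT libraries had a median of 0.446 log2 CPM and VAS4 differed from VAS1 by a median of 0.333. The range over INT was at least 1 log2 unit in 14.8% of the genes, and VAS1 and VAS4 were that far apart in 12.2%. With VAS2 and VAS3 included, PC1 of the 8 libraries held 80.0% and set these libraries, at 169.5 and 163.1, apart from the other 6, at -57.1 to -54.1. After removal of the trend against counts per base, over the 9624 genes with no opposite-strand gene, VAS2 and VAS3 had PC1 scores of 25.6 and 39.2, between INT2 at 5.60 and INT3 at 55.7. On PC2 (12.7%) they still lay apart, at -50.7 and -33.4 against -8.78 to 24.5 in the other 9 libraries.

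**Figure D4:**
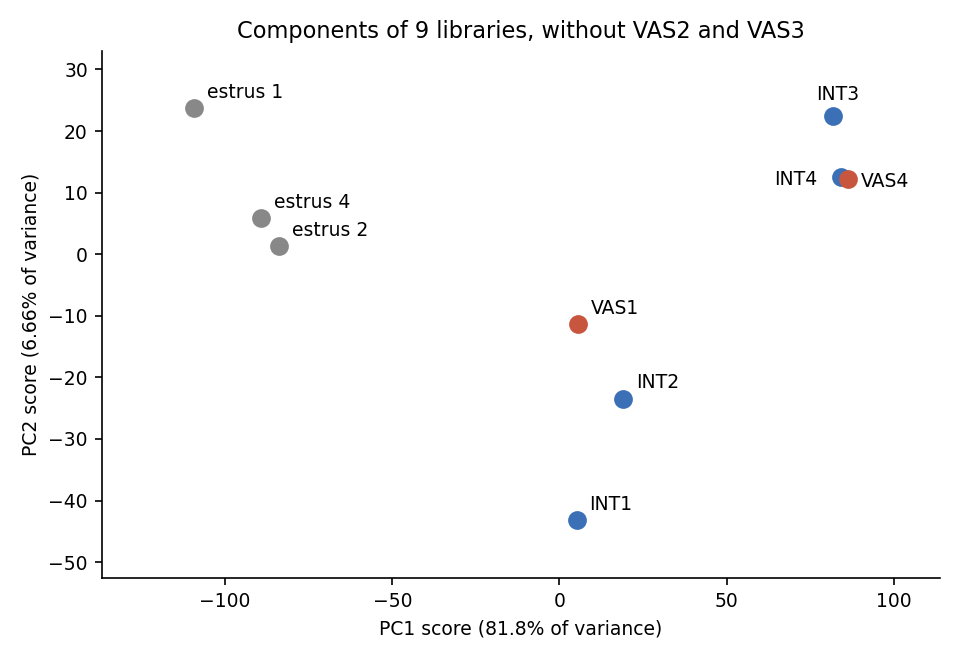
Scores on the first 2 principal components of log2 CPM (arbitrary units; shares of variance on the axes) for the 3 estrus, 4 INT and 2 VAS libraries other than VAS2 and VAS3. VAS1 lies near INT1 and INT2 on PC1 and VAS4 beside INT3 and INT4, at 86.4 and 84.1 for VAS4 and INT4.

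Among protein-coding genes with no gene on the opposite strand, those with the largest weights towards INT1, INT2 and VAS1 on PC1 included epithelial genes that were high in estrus. Clca1, a secreted regulator of chloride channels, was at 1893, 583, 2.91 and 6.93 CPM in INT, 436 CPM in VAS1, 3.25 CPM in VAS4 and 2136 to 3060 CPM in estrus. Alpl, alkaline phosphatase, was at 267, 121, 3.42 and 2.17 CPM in INT, 92.8 CPM in VAS1 and 1.41 CPM in VAS4. At the other end were Cyp26a1, which degrades retinoic acid, at 3.25, 4.16, 103 and 1.96 CPM in INT, 11.7 CPM in VAS1 and 41.2 CPM in VAS4, and Adamts16, a matrix protease, at 27.2, 33.9, 54.8 and 107 CPM in INT, 10.5 CPM in VAS1 and 64.0 CPM in VAS4. These genes were taken from the loadings after the data were seen and serve as a description of the axis.

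Lists of cell type markers and pathways were examined next, as levels of bulk tissue in which fewer cells of a type and less RNA per cell cannot be told apart. Of 43 lists, 40 had tested members, and in none did the median level of all 4 VAS libraries lie above or below that of all 4 INT libraries. VAS1 and VAS4 both lay below the INT range in 2 lists, mesothelium and fat and glucose and glycogen metabolism, and above it in none. In the glucose list they were at 5.64 and 5.88 log2 CPM against 5.90 to 6.21 in INT. With the trend against counts per base removed they were at 6.64 and 6.55 against 6.55 to 7.41, so that VAS1 lay within the INT range. In 38 of the 40 lists the mean level of VAS1 and VAS4 was within 0.5 log2 units of the INT mean. Markers of the labelled tissue were present in every VAS and INT library. For 15 epithelial genes the median level was 7.58, 7.59, 5.64 and 6.39 log2 CPM in INT1 to INT4. In VAS1 to VAS4 it was 7.26, 6.25, 5.92 and 6.07. INT1, INT2 and VAS1 thus lay above INT3, INT4 and VAS4, as they did for Ltf. The part of epithelial content in the levels of Ltf and similar genes was not tested. For 15 stromal genes the median level was at least 8.6 in VAS1, VAS4 and the INT libraries.

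**Figure D5:**
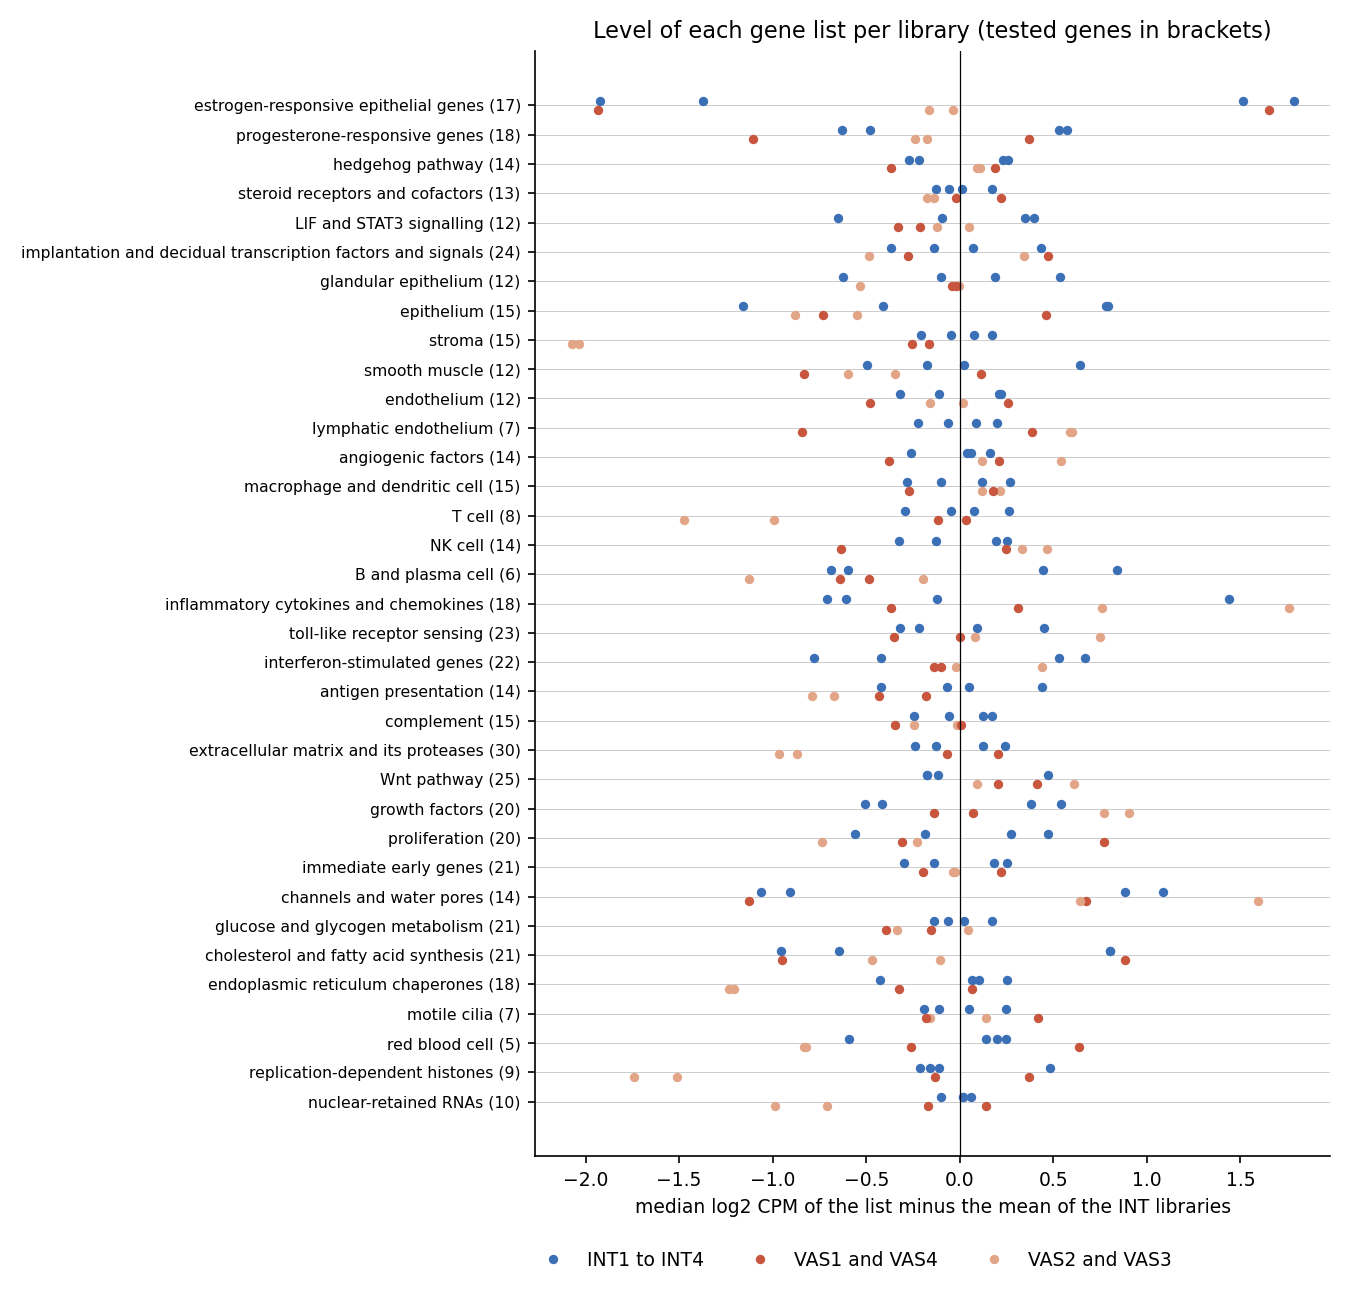
For each list with at least 5 tested genes (number in brackets), the median log2 CPM in each library is drawn as its difference from the mean of the INT libraries. INT (blue) and VAS1 and VAS4 (dark red) overlap in nearly every row, while VAS2 and VAS3 (light red) lie about 2 log2 units lower for stroma.

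Stromal genes, which are abundant, separated VAS2 and VAS3 from all other libraries. Their median level was 8.65 to 9.03 log2 CPM in INT, 8.6 in VAS1 and 8.69 in VAS4, but 6.78 in VAS2 and 6.82 in VAS3. Col3a1, a fibrillar collagen, was at 3139 to 3716 CPM in INT, 3536 CPM in VAS1 and 3197 CPM in VAS4, and at 532 and 544 CPM in VAS2 and VAS3. Its logFC was -0.83 (-1.81 to 0.14) and, without VAS2 and VAS3, -0.04 (-0.23 to 0.15), and with the trend against counts per base removed the 9 stromal genes without an opposite-strand gene had medians of 9.56 and 9.61 in VAS2 and VAS3, beside 9.41 to 9.92 in the other 6 libraries. The median logFC of 14 antigen presentation genes was -0.57 with all VAS libraries. With all VAS libraries 9 of its 14 genes had an unadjusted p under 0.05, all of them lower in VAS, against 10.6% of all genes, and without VAS2 and VAS3, with 2 VAS libraries left, none did. All 14 still had a logFC below 0 in that fit, from -0.53 to -0.13 with a median of -0.25, against a median of -0.01 over all genes. With the trend removed, the 6 members without an opposite-strand gene had medians of 7.71 to 8.61 log2 CPM in INT and of 7.52, 7.91, 7.86 and 8.08 in VAS1 to VAS4, so that VAS1 alone lay below the INT range. B2m, the light chain of class I molecules, was at 321 to 498 CPM in INT, 364 and 344 CPM in VAS1 and VAS4, and 62.5 and 60.4 CPM in VAS2 and VAS3. H2-Ab1, a class II gene, was at 56.3 CPM in VAS1 against 69.2 to 132 CPM in INT, while VAS4 at 72.9 CPM lay within the INT range.

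Neutrophil markers did not share one order of libraries. The summed level of the 10 markers was 11.4 to 17.9 CPM in INT and 27.2, 56.9, 71.6 and 15.8 CPM in VAS1 to VAS4, so that VAS4 lay within the INT range. Cxcr2, a chemokine receptor of neutrophils, had 10, 14, 10 and 10 counts in INT and 44, 175, 252 and 14 counts in VAS. The calprotectin genes S100a8 and S100a9 had 10 to 17 and 7 to 19 counts in INT, 29 and 30 in VAS1, 136 and 143 in VAS2, 171 and 217 in VAS3, and 24 and 18 in VAS4. The granule genes of immature neutrophils stayed low: Elane had no count in any of the 8 libraries and Mpo at most 5, and Camp and Ngp, with 5 to 17 and 2 to 7 counts in INT, had 2 and 4 in VAS2 and none in VAS3. Only 3 of the 10 genes, Csf3r, Ly6g and Retnlg, were expressed highly enough to be tested, and none was called. Ly6g followed the order of libraries seen for Ltf instead, with 38 and 49 counts in INT1 and INT2, 57 in VAS1, 3 and 3 in INT3 and INT4, and 4 in VAS4. The median level of the 3 tested genes was 1.46 to 1.68 log2 CPM in INT and 2.38, 1.95, 2.28 and 1.37 in VAS1 to VAS4. With the trend against counts per base removed it was 2.26 to 2.5 in INT and 3.28, 2.43, 2.78 and 2.17 in VAS, so that VAS2 lay within the INT range and VAS1 was highest, and the logFC of Csf3r was 1.23 in place of 1.58.

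Other immune transcripts were set side by side in the same way. The chemokine Cxcl5, which attracts neutrophils, was at 0.14 to 3.48 CPM in INT, 1.07 and 0.918 CPM in VAS1 and VAS4, and 31.1 and 13.5 CPM in VAS2 and VAS3, and the interleukin gene Il1b was at 1.47 to 2.27 CPM in INT, 1.52 and 1.69 CPM in VAS1 and VAS4, and 7.98 and 6.77 CPM in VAS2 and VAS3. Both are values of sparsely counted genes, and neither was called. Cd3e, a subunit of the T cell receptor, was at 2.40 to 3.57 CPM in INT, 1.92 and 1.20 CPM in VAS1 and VAS4, and 4.67 and 3.81 CPM in VAS2 and VAS3. Its logFC was -0.85 (-1.64 to -0.05) without VAS2 and VAS3 and 0.04 with them, and Cd3g, another subunit, changed sign in the same way, from -0.62 to 0.05. Both have under 0.1 counts per base, where genes read higher in VAS2 and VAS3 by a median of 0.753 to 0.898 log2 units. With that trend removed, the 4 T cell genes without an opposite-strand gene had a median of 2.66 to 2.76 log2 CPM in INT. In VAS1 to VAS4 it was 2.19, 2.85, 2.30 and 1.82, so that VAS2 alone did not lie below INT. Over all 8 tested T cell genes, without that step, the median was 3.26 to 3.82 in INT and 3.44, 2.56, 2.08 and 3.59 in VAS1 to VAS4. There VAS1 and VAS4 lay within the INT range, and VAS2 and VAS3 lay below it. Of the 8 tested T cell genes, Cd3e and Cd3g lay below all INT libraries in VAS1 and VAS4, against 1.79% of all genes. Gzma, a granzyme of natural killer cells, was the only one of 14 in its list to do so.

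All 3 tested mesothelial genes lay below the INT range in VAS1 and VAS4, against 1.79% of all genes. Msln, which encodes mesothelin, was at 4.05 to 6.73 CPM in INT, 2.76 and 3.67 CPM in VAS1 and VAS4, and 7.18 and 12.8 CPM in VAS2 and VAS3, with a logFC of -0.71 (-1.16 to -0.26) without VAS2 and VAS3 and 0.33 with them. Upk3b and Lrrn4, the other tested members, had a logFC of -0.60 (-1.01 to -0.19) and -0.71 (-1.20 to -0.22) without VAS2 and VAS3, and of -0.06 and 0.04 with them. The summed level of the 8 mesothelial and fat genes was 23.7 to 29.8 CPM in INT and 15, 30.7, 43.1 and 18.2 CPM in VAS1 to VAS4, and none was called. These genes are also of the sparsely counted kind, and with the trend removed their median level was 3.57 to 4.01 log2 CPM in INT and 2.92, 3.53, 4.02 and 3.22 in VAS1 to VAS4, so that VAS2 lay below the INT range as well. They belong to the outer lining of the uterus, which is not part of the scraped mucosa, and the part of the dissection in their levels was not tested.

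In the Wnt pathway, Sfrp1, a secreted inhibitor of Wnt ligands, was the only one of 25 tested genes whose 4 VAS libraries, at 7.05, 7.56, 11.3 and 6.00 CPM, lay above the INT libraries, at 5.37, 4.41, 4.16 and 2.17 CPM, a pattern held by 0.633% of all genes. Its logFC was 0.99 (0.40 to 1.57) and, without VAS2 and VAS3, 0.70 (0.07 to 1.34). Wnt7a, a ligand of the luminal epithelium, was at 15.5 to 37.4 CPM in INT and at 99.2, 21.9, 39.0 and 16.3 CPM in VAS, so that VAS1 alone carried its logFC of 1.37 (0.23 to 2.5) without VAS2 and VAS3, which was 0.97 (-0.04 to 1.97) with them. Axin2, a target of canonical Wnt signalling, likewise stood out in VAS1 alone, at 138 CPM against 63.2 to 90.1 CPM in the other 7. Among 30 matrix and protease genes, Mmp9 alone had groups that did not overlap, against the same 0.633% of all genes. Proliferation genes had a median level of 5.03 to 6.06 log2 CPM in INT and of 6.36, 4.85, 5.36 and 5.28 in VAS1 to VAS4, and none of the 20 was called. VAS1 alone lay above the INT range, and VAS4 lay within it. Without VAS2 and VAS3 all 20 genes had a logFC above 0, from 0.13 to 0.62. Their median was 0.27, against -0.01 over all genes tested, and with all VAS libraries it was 9.93e-05.

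Transcripts from the conceptus and the male were at or near the floor. The 12 blastocyst genes summed to 4.01 to 6.23 CPM in INT and 4.21 to 6.30 CPM in VAS, most of it Tfap2c, Elf5 and Sox2, which maternal tissue can express, and Cdx2, a factor of the trophectoderm, and Zfp42 had no count in any library. The 7 seminal vesicle secretory genes Svs1 to Svs6 had no count in any of the 8 libraries, so that each lies below the limit of 3 counts. Uty, with 2 counts in INT2, was the only Y chromosome gene of 4 with a count. The 10 sperm genes had 116 to 202 counts in INT, 179 in VAS1, 173 in VAS4 and 2 and 0 in VAS2 and VAS3, and 111 to 188 of them in INT were from Gapdhs, whose exons overlap a gene on the opposite strand. Gapdhs had no count in VAS2 and VAS3, like many genes in such an overlap. Prm1, a sperm protamine gene, had 1 to 10 counts in INT, 6 and 7 in VAS1 and VAS4 and none in VAS2 and VAS3. A difference between VAS and INT in transcripts of the embryo, sperm or semen was not detectable at this depth.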

How the data were processed

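RNA was sequenced with a stranded total RNA kit. Per the labels and the study's methods, reads were aligned with STAR to GRCm38 (mm10) and counted per gene with featureCounts, and the authors deposited unnormalized counts for 49089 genes; tool versions and the strand setting are not given in the sources used here. Of 19 libraries, 8 are described. Testing covered the 17222 genes that reached 3 CPM in 3 or more of the 19 libraries, with TMM scaling and the quasi-likelihood test of edgeR 4.0.16 (R 4.3.3), all 5 groups in the fit, Benjamini-Hochberg adjustment, FDR of 0.05 or less and a fold change of at least 1.5. A second fit left out VAS2 and VAS3. Limma 3.58.1 (voom), DESeq2 1.42.0, other filters, scalings, libraries left out and a replicate block were alternatives. Opposite-strand overlaps came from the exon coordinates in the count table. The trend against counts per base was a lowess curve (span 0.3) per library. Scripts were tested on simulated counts. Named genes were the 10 with the smallest p and 15 genes of hormone response and implantation; members and lists were chosen with earlier results of these data known.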

Additional observations from a re-analysis of the deposited data

Results flagged for a closer look

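In 7 of the 138 sets of 4 libraries examined, 1 library lay apart from the other 3 by more than Dixon's 95% limit for the ratio of its gap to the whole range. Chance flags about 1 in 20 such sets, which is 6.90 of 138, so that the number itself is that of chance. In VAS1, Foxa2 was at 2.93 log2 CPM against 4.06 to 4.09 in the other VAS libraries (ratio 0.972), and the lymphatic endothelium list at 2.08 against 3.31 to 3.52 (ratio 0.854). In VAS2, the glandular epithelium list was at 3.90 against 4.39 to 4.43 (ratio 0.925). In INT3, the Wnt pathway list was at 4.90 against 4.25 to 4.31 (ratio 0.908) and the replication-dependent histones at 6.13 against 5.44 to 5.54 (ratio 0.855). In INT2, the red blood cell list was at 2.78 against 3.51 to 3.62 (ratio 0.869). In INT4, genes of the antisense type took 1.38% of the counts against 1.32% to 1.33% (ratio 0.833).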

How the results depend on the processing

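The count of 0 called genes held in 23 of 28 alternatives to the fit of all 4 VAS libraries and in 12 of 12 without VAS2 and VAS3. The replicate number as a block gave 0 calls in edgeR, with 458 genes at an unadjusted p under 0.05 against 225 without the block. Deviations of same-numbered libraries from their group means had an r of 0.18, 0.04, 0.05 and 0.34. The VAS mean includes VAS2 and VAS3, so that these r cannot decide whether the numbers pair the libraries. Calls appeared with limma-voom (1661), limma-voom with quality weights (4718), limma-voom with TREAT (775) and on leaving out 1 library (0 to 576). The sign of several named genes reversed, and of these Pgr was called in edgeR without VAS1, at a logFC of -0.71 (FDR 0.0454). Hoxa10, whose sign held, was called in edgeR without VAS4, at -0.94 (FDR 0.0484). Without VAS2 and VAS3 the logFC was -0.67 for Lif, 0.19 for Pgr, 0.05 for Esr1, 0.05 for Msx1 and -0.68 for Ptgs2, and over genes with no opposite-strand gene it was -0.68, 0.18, 0.05, 0.05 and -0.68. Lif was at -0.02 with no filter, at -0.01 over genes with no opposite-strand gene and at -0.16 with the trend removed, which gave 0.06 for Pgr and 0.26 for Muc1. Quality weights gave 0.17 for Ihh, 0.49 for Areg, 0.49 for Foxa2, 0.33 for Bmp2 and 0.10 for Cxcl15. Limma-voom with these weights called Esr1 at -1.12 (FDR 3.54e-06) and Pgr at -0.93 (FDR 0.000209). It also called Msx1 at -0.67 (FDR 0.00842) and Hoxa10 at -0.78 (FDR 0.00460). Of the 3476 genes that it called lower, 69.8% lay opposite another gene. Their median logFC was -0.02 in the edgeR fit without VAS2 and VAS3. With the trend removed, edgeR gave -0.05 for Esr1, 0.06 for Pgr, -0.03 for Msx1 and -0.14 for Hoxa10, and called 0 genes. Foxa2 was at 0.06 with upper-quartile scaling and at 0.01 with a filter of 1 CPM, and Bmp2 at 0.06 with the replicate block. On leaving out 1 library the logFC ranged from -0.64 to 0.65 for Lif, -0.34 to 0.08 for Ihh, -0.38 to 0.26 for Areg, -2.39 to 0.24 for Ltf, -0.19 to 0.25 for Foxa2, -0.25 to 2.54 for Ptgs2, -0.31 to 0.49 for Bmp2, -0.79 to 0.19 for Muc1 and -0.20 to 0.14 for Cxcl15. The cause was not tested.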
